A study of Mus musculus with 6 samples.

Results

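The annexin family was followed in leukemia-initiating cells (LICs) through the 10 mouse annexin genes Anxa1 to Anxa9 and Anxa11, of the 27179 genes in the table. The members were chosen by their gene symbols, a family proposed with the Asic3-null against WT difference of these libraries already known. Every value of that difference given here is therefore a description and supports no claim about the family. Anxa10 and Anxa13, the other annexins listed, had no read in any library. Of the 10 members, 9 passed the filter of a mean of at least 1 RPKM (reads scaled to the length of the gene and to the reads of the library) and Anxa8 did not.

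The cells came from the MLL-AF9 mouse model of acute myeloid leukemia, in which Lin- fetal liver cells of Asic3+/+ (WT) or Asic3-/- (Asic3-null) genotype receive a retrovirus carrying the MLL-AF9 fusion and YFP and are transplanted into irradiated C57BL/6 mice. YFP+Mac-1+c-Kit+ LICs were sorted from bone marrow, and 3 Asic3-null-labelled libraries and 3 labelled WT were sequenced. All 6 samples were given as C57BL/6 and 8 weeks of age, and both groups carried the fusion. The Asic3-/- cells came from knockout mice, and the host's own blood cells had been depleted by irradiation. The study's methods speak in general of biologically repeated experiments, and the sources used here do not say which leukemia or mouse each of the 3 samples of a group came from. If they were not separate, p-values measure only the spread between these samples, which may be technical.

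Annexins are cytosolic proteins that bind acidic phospholipids of membranes when calcium rises. A conserved core of repeats holds the calcium sites, and a short or long amino-terminal tail, different in each member, sets the binding partners. In myeloid cells the family is known for membrane repair, vesicle traffic and the resolution of inflammation. Annexin A1 is released by granulocytes and monocytes and signals through formyl peptide receptors, while annexin A2 forms a complex with S100A10 that binds plasminogen at the cell surface.

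The libraries held between 1947168 and 2381861 reads, inferred from the RPKM values, and the 9 tested members had between 184 and 4500 reads over all 6 libraries. Asic3, the gene deleted by design, went against the labels and had 9.12, 4.11 and 6.58 RPKM in the Asic3-null-labelled libraries and 1.22, 1.85 and 0.435 RPKM in the WT-labelled ones. Whether reads came from the deleted part cannot be seen in a table of whole genes, and directions are given by label throughout. Whether the labels of the groups were exchanged was not tested, and an exchange would turn every direction given here. Xist, at 58.0 ± 12.9 RPKM (SD, n = 3) against 0.036 ± 0.019 RPKM, and the Y-linked Ddx3y, Kdm5d, Uty and Eif2s3y, with no read in the Asic3-null-labelled libraries, also separated the groups. Genotype label and sex of the cells cannot be told apart. Itgam, which encodes the Mac-1 chain of the sort, had 14.04 ± 2.51 against 76.8 ± 18.8 RPKM and Kit 17.6 ± 3.0 against 11.1 ± 3.6 RPKM (SD, n = 3 each). Both sort markers were thus detected in each group. Itgam was called lower in the Asic3-null-labelled libraries (log2 fold change -2.35, limma adjusted p = 0.00072), and Kit was not called. Of the MLL-AF9 targets, Meis1 ran in the opposite direction to the neutrophil granule markers and was called higher in the Asic3-null-labelled libraries, at 28.4 ± 6.8 against 14.4 ± 0.5 RPKM (SD, n = 3 each, limma adjusted p = 0.037). Hoxa9, at 52.8 ± 12.8 against 78.2 ± 8.2 RPKM (SD, n = 3 each), was not called. Of 12 neutrophil granule markers 11 were tested and all 11 were called lower in the Asic3-null-labelled libraries, and of 11 monocyte and macrophage markers 8 were tested and 4 were called lower, beside 2.82% of all tested genes. T cell markers summed to at most 1.31 RPKM in any library, with Cd3e at 0. B cell markers summed to between 37.32 and 49.996 RPKM, nearly all of it Cd79b, with Ms4a1 at 0. Erythroid markers summed to at most 10.3 RPKM, platelet and megakaryocyte markers to between 11.6 and 23.3 RPKM with Pf4 and Ppbp at 0, and endothelial markers to between 33.5 and 54.4 RPKM, nearly all of it Pecam1, with Kdr and Tek at 0. Mast cell and basophil markers summed to between 115 and 127 against between 57.0 and 128 RPKM, with Fcer1a at 0. In these 6 lists 1 gene was called, Gp1bb of platelets, lower at 1.16 ± 0.77 against 6.27 ± 2.34 RPKM (SD, n = 3 each). Itga2b, the other tested gene of the platelet list, went the other way. It had 16.3 ± 5.8 against 7.73 ± 2.68 RPKM (SD, n = 3 each), with overlapping groups, and was not called.

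The upstream sequences of Anxa1 and Anxa2 are shown because these members, described next, were the 2 called and had a like pattern over the libraries. Each is the 250 bases before the annotated start, 5′ to 3′ on the gene's own strand, from RefSeq for GRCm38.p6, a patch of the build that the processing notes name. Capitals mark each match to 1 of 6 motifs searched on both strands: the TATA box (TATAAA), the GC box (GGGCGG), the cAMP response element (TGACGTCA), the AP-1 site (TGANTCA), a C/EBP site (TTNNGCAA) and a PU.1 site (GAGGAAGT).
Anxa1, chr19:20390672-20390921, minus strand: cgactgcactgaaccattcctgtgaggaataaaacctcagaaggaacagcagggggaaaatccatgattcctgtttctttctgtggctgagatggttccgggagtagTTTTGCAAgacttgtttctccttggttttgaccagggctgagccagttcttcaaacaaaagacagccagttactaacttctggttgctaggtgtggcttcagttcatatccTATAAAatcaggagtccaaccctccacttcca
Anxa2, chr9:69453433-69453682, plus strand: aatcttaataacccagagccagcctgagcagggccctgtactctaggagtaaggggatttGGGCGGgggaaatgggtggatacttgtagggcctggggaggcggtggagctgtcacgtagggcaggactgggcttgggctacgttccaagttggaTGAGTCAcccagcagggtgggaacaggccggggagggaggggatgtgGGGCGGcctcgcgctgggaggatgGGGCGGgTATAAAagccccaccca

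The search covered windows of 300 bases, 250 before the start, as shown, and 50 after it, and no 2 matches overlapped in a member's window. TATAAA lay on the sense strand in the windows of Anxa1 and Anxa2, its first base 32 bases before the start of Anxa1 and 17 bases before that of Anxa2. It was in none of the other 9 windows, which belonged to Anxa4, Anxa5, Anxa7, Anxa8, Anxa9 and Anxa11, and 13.6% of all 32851 windows in the RefSeq table held it on either strand. Anxa1 also held the C/EBP letters, found in 10.8% of all windows. Anxa2 held the GC box 3 times and the AP-1 letters once, found in 35.7% and 7.81% of all windows. The windows of Anxa5, Anxa8 and Anxa9 held none of the 6 motifs. That of Anxa5 had 16 CpG pairs, compared with 3 in Anxa1, 13 in Anxa2 and a median of 7 over all windows. No window of a member held the cAMP response element or the PU.1 letters. Anxa3 and Anxa6 had no entry in the table.

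Anxa1 and Anxa2 were the most abundant annexins of these LICs and had the lowest levels relative to WT in the Asic3-null-labelled libraries, at 47.5% and 48.6% of their means in the WT-labelled ones. Read the other way, the WT-labelled means were 2.10-fold and 2.06-fold higher. Together they made up 57.4% ± 2.9 of the summed annexin RPKM in the WT-labelled libraries and 44.8% ± 2.2 in the Asic3-null-labelled ones (SD, n = 3 each). The other 7 tested members were not called, though each had a lower mean in the Asic3-null-labelled group.

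Anxa1 (Entrez 16952, chromosome 19 of GRCm38, 20373434 to 20390671) encodes annexin A1, the glucocorticoid-induced inhibitor of phospholipase A2 activity. It had 302, 334 and 353 RPKM in the WT-labelled libraries and 135, 153 and 182 RPKM in the Asic3-null-labelled ones. The lowest WT library lay well above the highest Asic3-null library, and the spread within each group was small beside the gap. Group means were 329.7 ± 26.1 and 156.7 ± 23.7 RPKM (SD, n = 3 per group), for which the log2 fold change was -1.08 (standard error, SE, 0.14, 95% interval -1.39 to -0.76) on the log2(RPKM + 1) scale. Adjusted over the 12037 tested genes, the limma p was 0.0042.

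Anxa2 (Entrez 12306, chromosome 9, 69453683 to 69491792) encodes the partner of S100A10. It had 275, 265 and 303 RPKM in the WT-labelled libraries and 129, 123 and 158 RPKM in the Asic3-null-labelled ones. Here too the groups were far apart, and replicate 3 was the highest library of both groups, as it was for Anxa1. Group means were 281.1 ± 20.1 and 136.7 ± 19.1 RPKM (SD, n = 3 per group), for which the log2 fold change was -1.04 (SE 0.13, 95% interval -1.34 to -0.74, limma adjusted p = 0.0039). The ratio of Anxa1 to Anxa2 within a library was 1.17 ± 0.08 in the WT-labelled libraries and 1.15 ± 0.10 in the Asic3-null-labelled ones (SD, n = 3 each), and the groups overlapped. In bulk samples fewer cells of a type and less RNA per cell cannot be told apart.

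**Figure D1:**
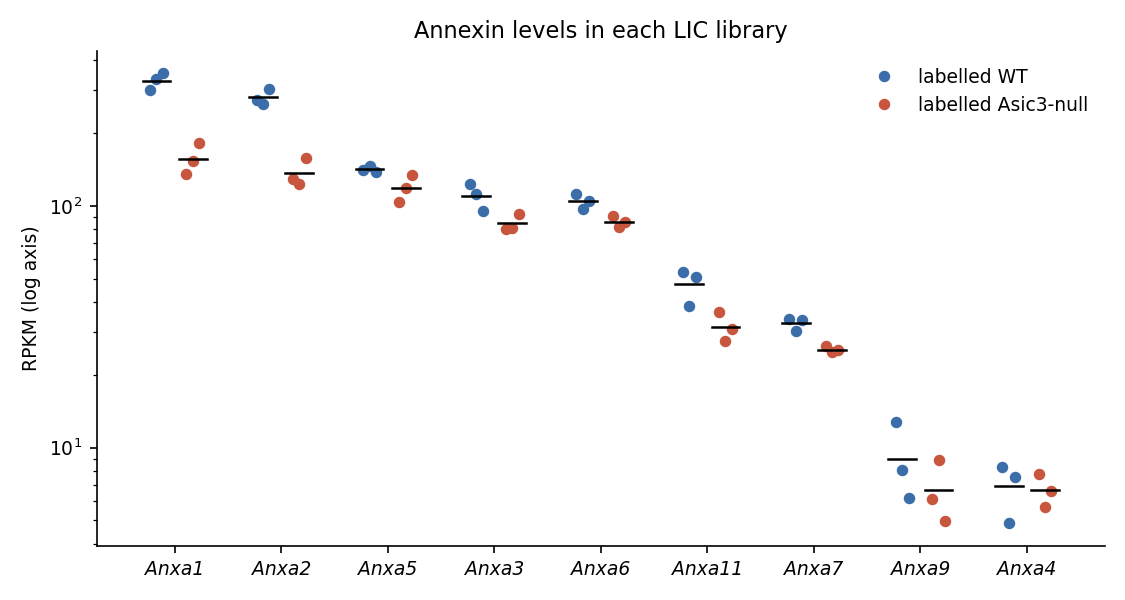
RPKM on a log axis for the 9 tested annexins in the 3 WT-labelled libraries (blue) and the 3 labelled Asic3-null (red), with black lines at the group means and members ordered by their WT mean. Anxa1 and Anxa2 lie at or above 265 RPKM in every WT library and at or below 182 RPKM in every Asic3-null library, while the points of Anxa9 and Anxa4 overlap.

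Both calls were among 340 lower calls in 12037 tested genes, a background of 2.82%, or 3.35% for calls in either direction. Of the 9 tested members 2 were called, both lower. The median log2 fold change was -0.36 over the 9 members and 0.03 over all tested genes, and 7 members had groups without overlap, all lower, against 11.4% of all tested genes without overlap in that direction. The family was proposed on this contrast, so these shares are set side by side and nothing is read from them. Both calls were made in all 14 alternatives, in which the log2 fold change lay between -1.19 and -0.98 for Anxa1 and between -1.15 and -0.97 for Anxa2.

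Anxa5, Anxa3 and Anxa6 followed in abundance and were not called. Anxa5 (chromosome 3, 36448923 to 36475887) encodes the phosphatidylserine-binding annexin A5 used as a probe for dying cells. It had 141, 147 and 137 RPKM in the WT-labelled libraries and 104, 119 and 134 RPKM in the Asic3-null-labelled ones. The groups did not overlap, but the highest Asic3-null library came close to the lowest WT library. The log2 fold change was -0.26 (SE 0.13, 95% interval -0.55 to 0.03). Without Asic3-null replicate 1 it was -0.17. The interval includes 0 and ends short of the fold changes of Anxa1 and Anxa2.

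Anxa3 (chromosome 5, 96793385 to 96845968), whose protein is abundant in neutrophils, had 123, 112 and 95.5 RPKM in the WT-labelled libraries and 80.3, 81.0 and 92.3 RPKM in the Asic3-null-labelled ones. Replicate 3 of each group nearly met, and the log2 fold change was -0.37 (SE 0.14, 95% interval -0.68 to -0.06). Anxa6 (chromosome 11, 54978953 to 55033471), the member with a duplicated core, had 112, 97.3 and 105 RPKM in the WT-labelled libraries and 90.6, 81.9 and 85.8 RPKM in the Asic3-null-labelled ones. Its groups were apart by less than the range within either, and the log2 fold change was -0.28 (SE 0.12, 95% interval -0.54 to -0.01).

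Anxa11 and Anxa7, the long-tailed annexins, were less abundant. Anxa11 (chromosome 14, 25842127 to 25886804), which tethers RNA granules to lysosomes, had 53.0, 38.6 and 50.8 RPKM in the WT-labelled libraries and 36.2, 27.7 and 30.9 RPKM in the Asic3-null-labelled ones. Replicate 2 was the lowest library of both groups, and the groups did not overlap. Its log2 fold change of -0.57 (SE 0.17, 95% interval -0.95 to -0.18) was the nearest to those of the called pair, with an adjusted p of 0.135 from limma. Anxa7 (chromosome 14, 20455261 to 20480133), also named synexin for its part in granule fusion, had 34.2, 30.3 and 33.6 RPKM in the WT-labelled libraries and 26.2, 24.8 and 25.3 RPKM in the Asic3-null-labelled ones. Its libraries were tight in both groups, and the log2 fold change was -0.35 (SE 0.13, 95% interval -0.65 to -0.05). The adjusted p from limma lay between 0.135 and 0.361 for Anxa11, Anxa3, Anxa7, Anxa6 and Anxa5, none of which was called in any of the 14 alternatives.

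Anxa9 and Anxa4 had few reads. Anxa9 (chromosome 3, 95296093 to 95315180), an atypical annexin with degenerate calcium sites, had 12.7, 8.05 and 6.19 RPKM in the WT-labelled libraries and 6.11, 8.91 and 4.95 RPKM in the Asic3-null-labelled ones. The groups overlapped, and WT replicate 1, at 53 reads, stood above the other 5 libraries, which had between 23 and 42. The log2 fold change of -0.36 (SE 0.29, 95% interval -1.01 to 0.29) was -0.11 without WT replicate 1, -0.20 without Asic3-null replicate 3, and -0.57 without Asic3-null replicate 2 or WT replicate 3. Anxa4 (chromosome 6, 86736840 to 86793634), a membrane-organizing annexin best known from epithelia, had 8.31, 4.87 and 7.59 RPKM in the WT-labelled libraries and 7.76, 5.66 and 6.59 RPKM in the Asic3-null-labelled ones. The lowest and the highest library were both labelled WT. They held 19 and 35 reads, whose exact Poisson 95% intervals, 2.93 to 7.61 and 5.79 to 11.6 RPKM, overlapped and cover counting error only. The log2 fold change was -0.03 (SE 0.23), with a 95% interval of -0.56 to 0.50 that ends short of the fold changes of Anxa1 and Anxa2. Its sign turned in 4 of 14 alternatives.

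Anxa8 (chromosome 14, 34085979 to 34100571), an epithelial annexin also known from acute promyelocytic leukemia, was listed at 0 in all 6 libraries. A count of 0 allows up to 3 reads in a library.

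**Figure D2:**
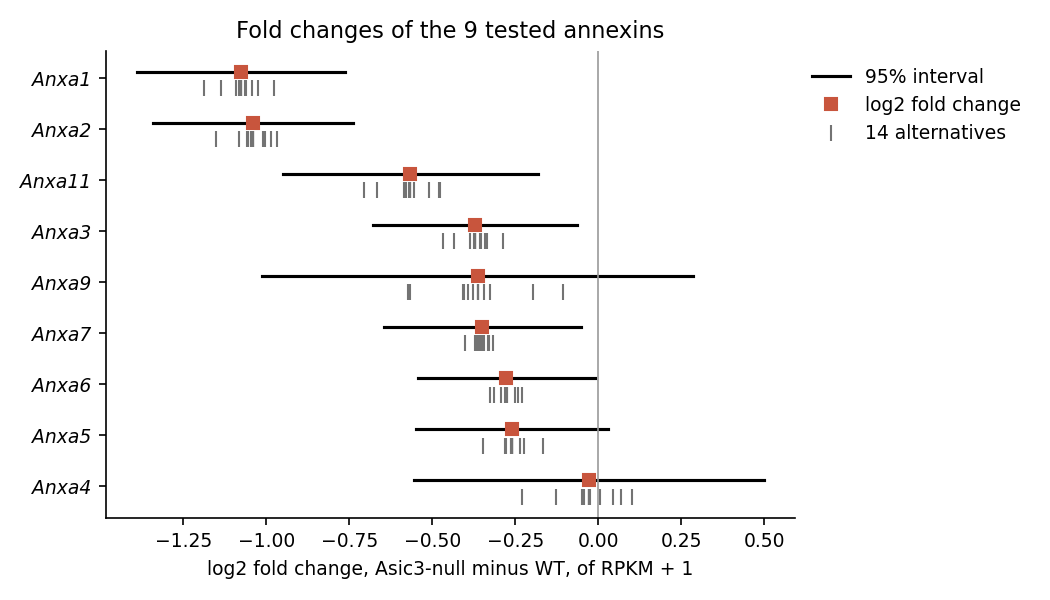
Log2 fold changes of the 9 tested annexins, libraries labelled Asic3-null minus WT on the log2(RPKM + 1) scale, as red squares with 95% intervals from limma as black lines and the values under 14 alternatives as grey ticks below each. The intervals of Anxa1 and Anxa2 end at -0.76 and -0.74, the estimates of the other 7 lie between -0.57 and -0.03, and the ticks of Anxa4 fall on both sides of 0.

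The order of the members by level was alike in the groups but less clear at its top in the Asic3-null-labelled libraries. In the WT-labelled libraries, Anxa1 and Anxa2 overlapped with each other and lay above Anxa5, which lay above Anxa3. Anxa3 and Anxa6 overlapped, Anxa11 and then Anxa7 followed without overlap, and Anxa9 and Anxa4 overlapped at the bottom. In the Asic3-null-labelled libraries, Anxa1 overlapped with Anxa2 and Anxa2 with Anxa5, whose highest library had 134 RPKM where the lowest of Anxa2 had 123 RPKM.

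Ratios within a library do not depend on how libraries were scaled. The ratio of Anxa1 to Anxa5 was 2.14, 2.28 and 2.57 in the WT-labelled libraries and 1.301, 1.287 and 1.361 in the Asic3-null-labelled ones. That of Anxa2 to Anxa5 was 1.95, 1.81 and 2.21 against 1.24, 1.03 and 1.18. Neither ratio overlapped between the groups, though these ratios set the 2 called members against one that was not and are a description. The ratio of Anxa6 to Anxa5 was 0.739 ± 0.067 in the WT-labelled libraries and 0.734 ± 0.121 in the Asic3-null-labelled ones (SD, n = 3 each), and that of Anxa3 to Anxa5 overlapped as well. Summed over the family, annexin RPKM was 1063 ± 29 against 653 ± 58, and without Anxa1 and Anxa2 it was 452 ± 27 against 360 ± 17 (SD, n = 3 each).

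**Figure D3:**
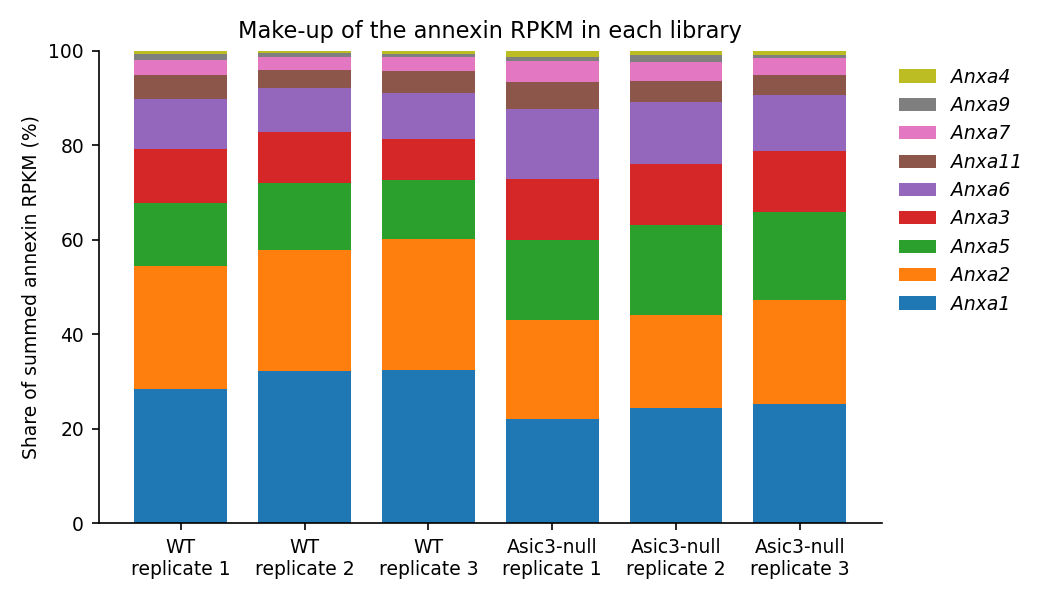
Share of each of the 9 detected annexins in the summed annexin RPKM, in percent, for the 3 WT-labelled libraries and the 3 labelled Asic3-null. Anxa1 and Anxa2, the lowest segments, take between 54.4% and 60.1% of each WT bar and between 43.0% and 47.3% of each Asic3-null bar, while Anxa5 takes 13.3% ± 0.8 and 18.2% ± 1.1 (SD, n = 3 each).

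The neutrophil granule markers summed to between 239 and 375 RPKM in the Asic3-null-labelled libraries and between 3905 and 4349 RPKM in the WT-labelled ones, with a median log2 fold change of -3.46 over 11 tested genes. The collagenase gene Mmp8 had 4.12 ± 0.84 RPKM against 60.3 ± 29.2 RPKM and the lactoferrin gene Ltf 1.08 ± 1.06 against 23.6 ± 14.8 RPKM (SD, n = 3 each), while Ly6g, the list's untested gene, had 1 read in all, in Asic3-null replicate 1. The monocyte and macrophage markers summed to between 233 and 272 RPKM against between 477 and 560 RPKM. The 4 called were Csf1r, Ccr2, Adgre1 and F13a1, of which F13a1 had 69.4 ± 5.2 against 200.2 ± 23.6 RPKM and Adgre1 10.3 ± 2.8 against 27.6 ± 2.2 RPKM (SD, n = 3 each). Cd68, at 133.7 ± 23.7 against 185.2 ± 18.4 RPKM, and C1qb, at 0.930 ± 0.598 against 1.40 ± 1.33 RPKM (SD, n = 3 each), were tested and not called, and the 3 untested genes, C1qa, C1qc and Mrc1, had 3, 3 and 1 reads over all 6 libraries. Both lists moved with Anxa1 and Anxa2, and their part in the annexin values was not tested.

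The annexin partner genes were a list of 29 genes whose products bind annexins or act beside them. Of these 22 were tested and 5 were called, all lower, beside 2.82% of all tested genes called lower. The median of the 22 log2 fold changes was -0.46, and that of all tested genes was 0.03. The list was drawn up with earlier results of these libraries known. Among the S100 proteins, which clasp annexin tails, S100a4 had 10.5 ± 1.2 RPKM in the Asic3-null-labelled libraries against 52.5 ± 4.8 RPKM in the WT-labelled ones, and S100a6 had 36.4 ± 14.9 against 143.9 ± 30.7 RPKM (SD, n = 3 each). Their log2 fold changes were -2.22 and -2.005, with adjusted p of 0.00015 and 0.0058 from limma. S100a10 and S100a11, whose products bind annexin A2 and annexin A1, were not called. S100a10 had 58.5, 134 and 85.8 RPKM in the WT-labelled libraries and 60.5, 57.5 and 48.5 RPKM in the Asic3-null-labelled ones, and its groups overlapped through WT replicate 1. S100a11 had 187, 172 and 168 RPKM in the WT-labelled libraries and 97.7, 146 and 140 RPKM in the Asic3-null-labelled ones, with no overlap. Their log2 fold changes were -0.66 (SE 0.26) and -0.48 (SE 0.16), and were -0.35 for S100a10 without WT replicate 2 and -0.29 for S100a11 without Asic3-null replicate 1. The ratio of Anxa2 to S100a10 overlapped between the groups, and that of Anxa1 to S100a11 did not.

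Of the formyl peptide receptors, through which annexin A1 signals, Fpr2 had 23.12, 17.04 and 8.15 RPKM in the WT-labelled libraries and 1.33, 2.92 and 0.329 RPKM in the Asic3-null-labelled ones. Its reads were 63, 43 and 25 against 4, 9 and 1, and the groups were far apart though WT replicate 3 was low. The log2 fold change was -2.79 (SE 0.45, limma adjusted p = 0.012), and the call was lost without WT replicate 1, where the adjusted p was 0.056 from limma. The size of the difference depended on how low values were treated, with a log2 fold change of -3.60 at a pseudocount of 0.1 and -3.48 with limma-voom on the recovered reads. Fpr1 had 11, 5 and 4 reads in the WT-labelled libraries against 0, 3 and 0, and was not called. Fpr3 and Fpr-rs4 were listed at 0 in every library.

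Plaur, the receptor of the plasminogen activator urokinase, had 39.6 ± 4.1 RPKM in the Asic3-null-labelled libraries against 66.8 ± 4.8 RPKM in the WT-labelled ones (SD, n = 3 per group), for which the log2 fold change was -0.74 (SE 0.13, limma adjusted p = 0.020). The genes of plasminogen and its tissue activator, Plg and Plat, were at 0. The call on Plaur was made in 7 of 14 alternatives. Without Asic3-null replicate 2 or 3, or WT replicate 1, 2 or 3, its adjusted p from limma was 0.058, 0.091, 0.052, 0.086 and 0.060. This p was 0.054 without the mean-variance trend and 0.069 with the replicate number as a block. Gca, which encodes grancalcin, had 2.28 ± 0.61 against 5.96 ± 0.83 RPKM (SD, n = 3 per group), for which the log2 fold change was -1.10 (SE 0.24, limma adjusted p = 0.043). Its call was made in 4 of the 13 alternatives in which it was tested. That call was lost without any 1 of the 6 libraries, with adjusted p between 0.075 and 0.137 from limma. It was also lost with no filter (0.090), with quantile normalization (0.058) and with the replicate block (0.099).

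The other abundant partners were not called, with differences of either sign. Sri, which encodes sorcin, a binder of annexin A7, had 39.9 ± 1.4 RPKM against 52.4 ± 5.7 RPKM, and Pdcd6, which encodes ALG-2, a binder of annexins A7 and A11, had 73.6 ± 6.1 against 63.5 ± 2.2 RPKM (SD, n = 3 each). The calpain subunit genes Capn1 and Capns1 had 52.5 ± 5.5 against 72.0 ± 7.9 and 323 ± 7 against 347 ± 10 RPKM (SD, n = 3 each). Of the 5 phosphatidylserine exposure genes, which include the scramblases Ano6 and Xkr8, none was called and all had overlapping groups.

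**Figure D4:**
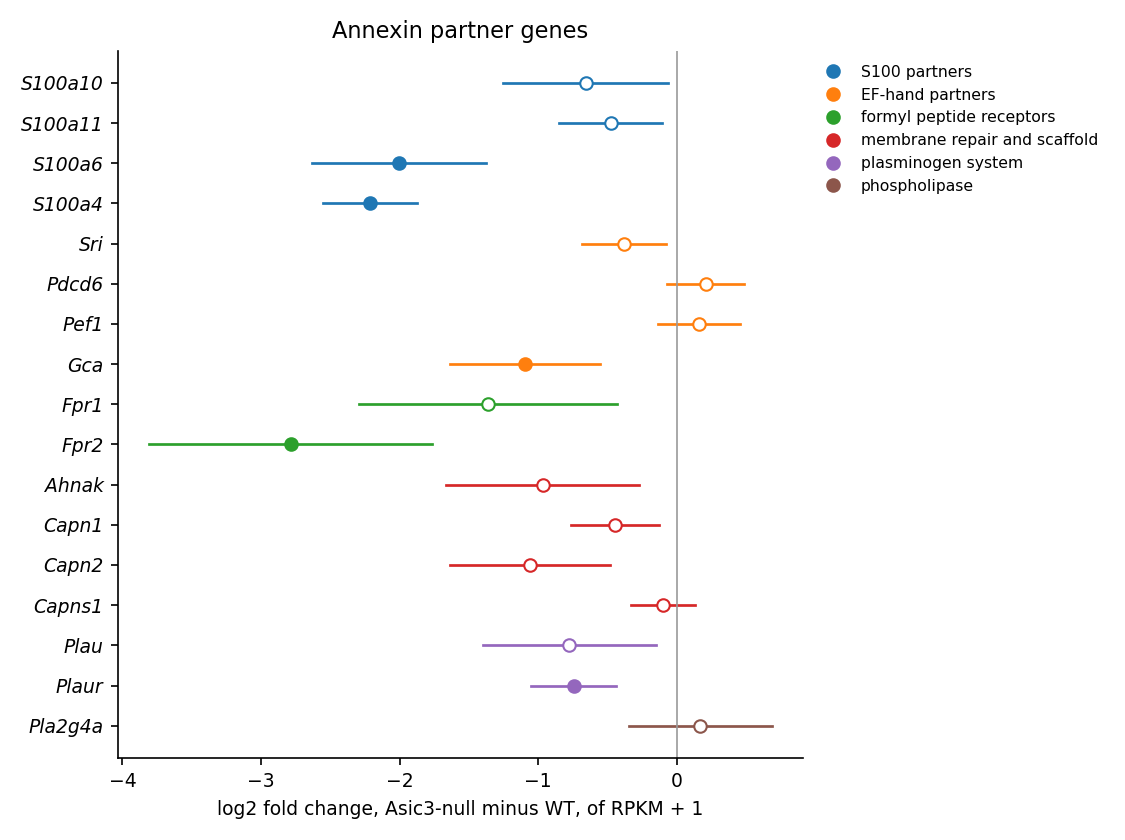
Log2 fold changes of the tested annexin partner genes other than the phosphatidylserine exposure genes, libraries labelled Asic3-null minus WT on the log2(RPKM + 1) scale, with 95% intervals from limma, colored by group, with filled points for called genes. The 5 filled points (S100a6, S100a4, Gca, Fpr2 and Plaur) lie left of 0, and the points of Pdcd6, Pef1 and Pla2g4a lie right of it without being called.

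The genes whose pattern over the 6 libraries was most like that of Anxa1, by Pearson's r of log2(RPKM + 1), were Olfm4, Slc2a6 and Hcls1, with r of 0.99503, 0.99025 and 0.98996. Anxa2 had r = 0.986, and 121 tested genes had r above 0.95. Olfm4, a granule glycoprotein gene of neutrophils, had 19.1 ± 6.1 RPKM against 117.9 ± 10.1 RPKM, Slc2a6, a sugar transporter gene, 10.3 ± 2.0 against 31.7 ± 1.1 RPKM, and Hcls1, a cortactin-like gene of blood cells, 128.4 ± 11.5 against 193.4 ± 1.8 RPKM (SD, n = 3 each). The 6 points fall into the labelled groups, so r is a description of a difference between them and not of 6 independent points. Anxa9 and Anxa4 had r of 0.31 and -0.02 with Anxa1, and the other 5 tested members between 0.77 and 0.89.

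The chromosomal neighbours of the members were looked up because the sources used here do not say whether the libraries mark strand. No protein-coding gene overlapped Anxa1 or Anxa2. Ice2, next to Anxa2, had a log2 fold change of 0.17 (SE 0.23), and Aldh1a1, next to Anxa1, had no read. Anxa9 overlaps Mindy1 and Cers2, which had 30.1 ± 5.0 and 104.7 ± 6.1 RPKM in the Asic3-null-labelled libraries against 36.2 ± 4.6 and 108.5 ± 10.8 RPKM in the WT-labelled ones (SD, n = 3 each). Reads of these more abundant genes could have been counted in Anxa9, so its level is uncertain.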

How the data were processed

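RNA of 3 libraries labelled Asic3-null and 3 labelled WT was compared, with groups and replicate numbers from the sample titles. Per the labels, the submitters' processing notes name CASAVA 1.8.2, TopHat2 2.0.12 and the build GRCm38. The authors deposited RPKM per Entrez gene, and the counting tool and annotation are not given in the sources used here. RefSeq for GRCm38.p6 gave 25275 of 27179 symbols. Whole reads were recovered from the RPKM values for each of the 16825 genes above 0 (tolerance 0.0001 reads), which gave inferred library sizes between 1947168 and 2381861 reads.

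The test was limma 3.58.1, run in R 4.3.3 on log2(RPKM + 1) of genes whose mean reached 1 RPKM (mean-variance trend, no other term, Benjamini-Hochberg adjustment over all 12037 genes, threshold 0.05). The study compared candidate genes of the sequencing by an unpaired test per gene, and limma was used here because it shares the estimate of spread across genes. The fit was tested on simulated data. The 14 alternatives were a pseudocount of 0.1, no filter, a mean of at least 5 RPKM, scaling by median ratios, quantile normalization, limma without the trend, limma-voom on the recovered reads, the replicate number as a block, and each library left out. Named were all members, partner genes called or with a group mean of at least 50 RPKM, the label checks, the 3 genes most like the called member of largest change, and gene neighbours. Ratios between members, and the partner and marker genes named outside that rule, were chosen after their values were seen. Members and lists were chosen with earlier results of these data known. Figures were drawn with matplotlib 3.10.9 in Python 3.11.15. Without molecular identifiers on the reads, Poisson intervals hold counting error alone. Protein sequences were not used here. Some genes of the lists are not reported here by name.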

Additional observations from a re-analysis of the deposited data

How the results depend on the processing

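Anxa1 and Anxa2 were called lower, and no other member was called, in all 14 alternatives, which gave a count of 2 each time. The number of all genes called, 403 with limma, was 246 with the replicate block and between 203 (without WT replicate 1) and 293 (without WT replicate 3) with 1 library left out, and between 288 (no filter) and 546 (limma-voom) in the other alternatives. The partner genes called, 5 with limma, were 3 with the replicate block and between 2 (without WT replicate 1) and 4 (without Asic3-null replicate 1) with 1 library left out, and between 4 and 7 (limma-voom) in the others. The 2 lost with the replicate block were Plaur (limma adjusted p = 0.069) and Gca (limma adjusted p = 0.099). The cause of these differences was not tested. Same-numbered libraries of the groups deviated from their group means with correlations of 0.059, -0.059 and -0.123. Libraries with different numbers had correlations between -0.073 and 0.14. Deviations from a mean of 3 libraries also hold counting error, so these values cannot decide whether same-numbered libraries were paired. The log2 fold change of Anxa4 turned to 0.0057 with quantile normalization and to 0.069, 0.10 and 0.044 without Asic3-null replicate 2, WT replicate 1 and WT replicate 3, within a range of -0.23 to 0.10 over the 6 libraries left out in turn. The median over all tested genes lay between 0.01 and 0.06 in every alternative. Depth limits Anxa4 and Anxa9, where 1 read was worth between 0.21 and 0.26 RPKM.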
